A study of Homo sapiens with 8 samples.

Results

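The proteasome is the large protease that degrades ubiquitin-tagged proteins, and the members described here are its subunits and activators. They were chosen by name, as the genes whose symbol is PSMA, PSMB, PSMC, PSMD or PSME followed by a number and nothing else. This gave 43 of the 21524 genes measured, covered by 62 of 50599 probes. PSMC3IP, PSME3IP1 and the antisense gene PSMD6-AS2 share the prefix but encode no subunit and were left out. The 43 comprise 5 immunoproteasome members (PSMB8, PSMB9, PSMB10, PSME1 and PSME2), 36 constitutive members and the tissue-specific PSMA8 and PSMB11.

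RNA came from NGP, an established human neuroblastoma line, on 8 one-colour Agilent arrays. In 4 of them, labelled CFC1, the cells had received CFC1 cDNA by lentivirus. The other 4, labelled mock, had received a mock construct by the same system. Both groups were selected with puromycin. CFC1 encodes Cryptic, a co-receptor for Nodal, and the design asks how it alters the transcript profile. The labels do not say whether the arrays of a group came from separate cultures, which promoter drove the cDNA or whether the cells were clones, so p-values measure only the spread between these arrays. Values are log2 values relative to an unstated baseline of each probe. They give differences between arrays and no level of expression, so no subunit can be ranked against another by abundance, the labelled cell type cannot be checked by whether its markers are present, and a difference does not show which group changed. In RNA from a whole culture, fewer cells that express a gene and less RNA per cell cannot be told apart.

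The core of the proteasome is a barrel of alpha and beta rings. Within the beta rings 3 subunits cut peptide bonds: PSMB6 after acidic residues, PSMB7 after basic ones and PSMB5 after hydrophobic ones. Interferon-gamma induces PSMB9, PSMB10 and PSMB8, which take the places of PSMB6, PSMB7 and PSMB5 in newly built particles, and PSME1 and PSME2, which form a ring-shaped activator at the barrel's end. Particles of this kind favour peptides suited to MHC class I. A regulatory particle of PSMC ATPases and PSMD subunits recognises, unfolds and feeds in ubiquitin-tagged proteins.

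The transduced gene did not bear out the labels. CFC1 read 0.055, -0.688, -0.593 and -0.296 in replicates 1 to 4 labelled CFC1, against 0.474, 1.101, 0.116 and -0.027 in the mock replicates. The groups overlapped, with a log2 difference of -0.80 (adjusted p = 0.0398 in limma; exact two-sided permutation p = 0.0571, n = 4 each). The call held in 8 of 19 alternatives. Where the probe lies relative to the transduced cDNA was not determined, so it may miss the construct, and it may also read CFC1B, a near-identical copy. The group is therefore called the arrays labelled CFC1, and all directions rest on the labels.

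Most proteasome genes read higher in the arrays labelled CFC1. Of the 43 members, 27 rose, 7 fell and 9 did not pass an adjusted p of 0.05 in limma. These are 79.1% called, where 57.9% of all genes were called, and 62.8% that rose, where 29.7% of all genes rose. Another 16.3% fell, against 28.2% of all genes. The median difference was 0.34 over the members and -0.09 over all genes. In 33 members (76.7%) the groups did not overlap, where this held for 56.5% of all genes. Differences were mostly small. Only 6 members rose at least 2-fold, PSMB8, PSMD5, PSMB9, PSMD13, PSMA5 and PSMB2, and 1 fell at least 2-fold, PSMD9, where 9.71% of all genes rose and 8.97% fell that far.

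**Figure D1:**
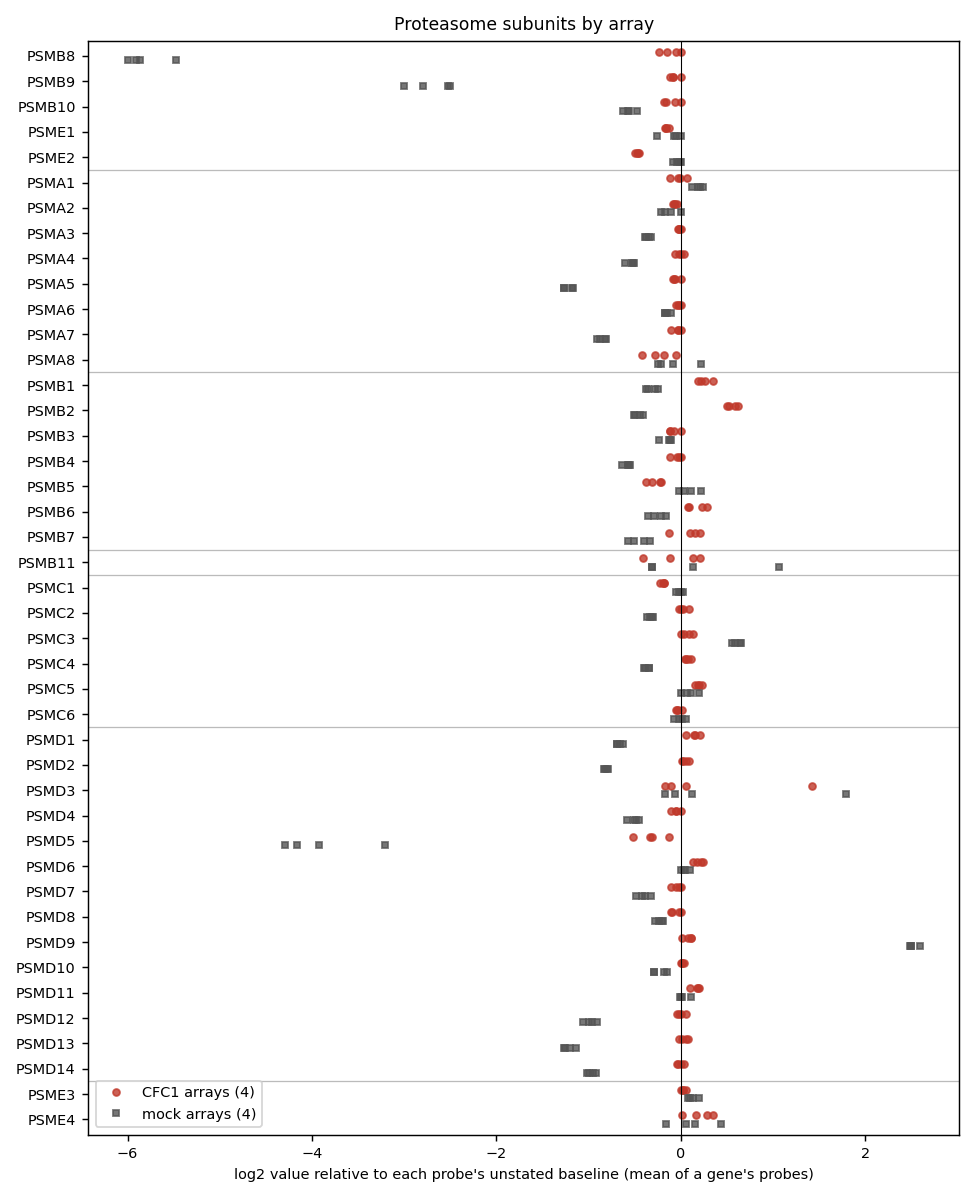
Values of the 43 subunits in each array (x axis, log2 relative to each probe's baseline, mean of a gene's probes), with red circles for the 4 arrays labelled CFC1 above grey squares for the 4 mock arrays. PSMB8, PSMB9 and PSMD5 lie far to the left in the mock arrays and PSMD9 far to the right, while PSMD3 has 1 array of each group apart from the rest.

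The immunoproteasome members did not move together. PSMB8 and PSMB9 rose strongly, PSMB10 rose slightly, PSME2 fell and PSME1 did not pass. Their median difference was 0.46, with 3 that rose and 1 that fell of 5, against a median of 0.35 with 24 that rose and 6 that fell of 36 constitutive members.

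PSMB8, the inducible counterpart of PSMB5, read 0, -0.237, -0.05 and -0.15 in replicates 1 to 4 labelled CFC1, and -5.906, -5.996, -5.86 and -5.47 in the mock replicates. Every array labelled CFC1 lay above every mock array by more than 5 log2 units. The difference was 5.70 (95% interval 5.42 to 5.98, adjusted p = 1.31e-08 in limma), or 51.9-fold, which placed PSMB8 at rank 49 of 21524 genes by rise. After quantile normalization it was 3.78. The table holds no background flags, so how far the mock signal lay above background is unknown and the fold is a fitted value.

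PSMB9, the inducible counterpart of PSMB6, read -0.121, -0.089, -0.086 and 0 in the arrays labelled CFC1 and -2.53, -2.505, -3.003 and -2.793 in the mock arrays. Again the groups lay well apart, with a difference of 2.63 (SE 0.113, adjusted p = 4.89e-07 in limma), or 6.21-fold. PSMB10, the inducible counterpart of PSMB7, read -0.183, -0.161, -0.061 and 0 in the arrays labelled CFC1 and -0.579, -0.625, -0.561 and -0.477 in the mock arrays. Its groups did not overlap, but the difference was only 0.46 (SE 0.055, adjusted p = 0.000166 in limma).

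PSME1, the alpha subunit of the interferon-induced activator, read -0.166, -0.133, -0.16 and -0.17 in the arrays labelled CFC1 and -0.257, -0.056, -0.079 and 0 in the mock arrays. The groups overlapped, because mock replicate 1 read lowest of all 8 arrays, and the difference of -0.06 did not pass (95% interval -0.19 to 0.07, adjusted p = 0.406 in limma). Without mock replicate 1 it was -0.112 and passed (adjusted p = 0.036), and it was 0.042 when arrays were scaled to the E1A spike-in spots. PSME2, the beta subunit of the same activator, read -0.469, -0.493, -0.46 and -0.473 in the arrays labelled CFC1 and -0.048, -0.09, -0.013 and 0 in the mock arrays. All 4 arrays labelled CFC1 were lower, by 0.44 (difference -0.44, SE 0.032, adjusted p = 1.06e-05 in limma), and after quantile normalization the difference was -0.676. The subunits of this activator, which assemble into 1 ring, thus did not share the direction of PSMB8 and PSMB9.

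Each inducible subunit was also set against its constitutive counterpart within each array. Baselines cancel in the difference between the groups, but the per-array values carry them and have no meaning on their own. Over the 5 pairs, 3 differed in exact permutation tests (two-sided, 70 arrangements), with arrays not paired by replicate number. The labels state no such pairing, and with it no exact p under 0.125 was possible by sign flips. With 4 against 4 arrays 0.0286 is the smallest possible p, and it becomes 0.0476 after adjustment over the 5 pairs. A p of 0.0286 is reached whenever the groups do not overlap, which held for 56.5% of all genes taken singly. The share over other pairs of genes was not computed, so the count of 3 is not shown to be particular to these pairs. PSMB8 minus PSMB5 averaged 0.177 ± 0.143 (SD, n = 4) in the arrays labelled CFC1 and -5.892 ± 0.225 in the mock arrays, a difference of 6.07 (exact adjusted p = 0.0476). PSMB9 minus PSMB6 averaged -0.242 ± 0.065 in the arrays labelled CFC1 and -2.45 ± 0.316 in the mock arrays, a difference of 2.21 (exact adjusted p = 0.0476, n = 4 each), which was 1.234 after quantile normalization.

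PSMB10 (0.46) and PSMB7 (0.54) moved by about the same amount. The 2 probes averaged for PSMB7 rose by 0.39 (SE 0.04) and 0.69 (SE 0.173), so 1 rose less than PSMB10 and the other more. PSMB10 minus PSMB7 averaged -0.185 ± 0.22 in the arrays labelled CFC1 and -0.104 ± 0.129 in the mock arrays (difference -0.08, exact adjusted p = 0.6, n = 4 each). PSME3, the nuclear relative of PSME1 and PSME2 that interferon does not induce, served as their counterpart. PSME2 minus PSME3 was lower in all 4 arrays labelled CFC1 (-0.497 ± 0.02, against -0.163 ± 0.033 in mock arrays; difference -0.33, exact adjusted p = 0.0476), and the difference was -0.694 after quantile normalization. PSME1 minus PSME3 overlapped between the groups, at -0.181 ± 0.037 in the arrays labelled CFC1 and -0.223 ± 0.112 in the mock arrays (difference 0.04, exact adjusted p = 0.6).

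**Figure D2:**
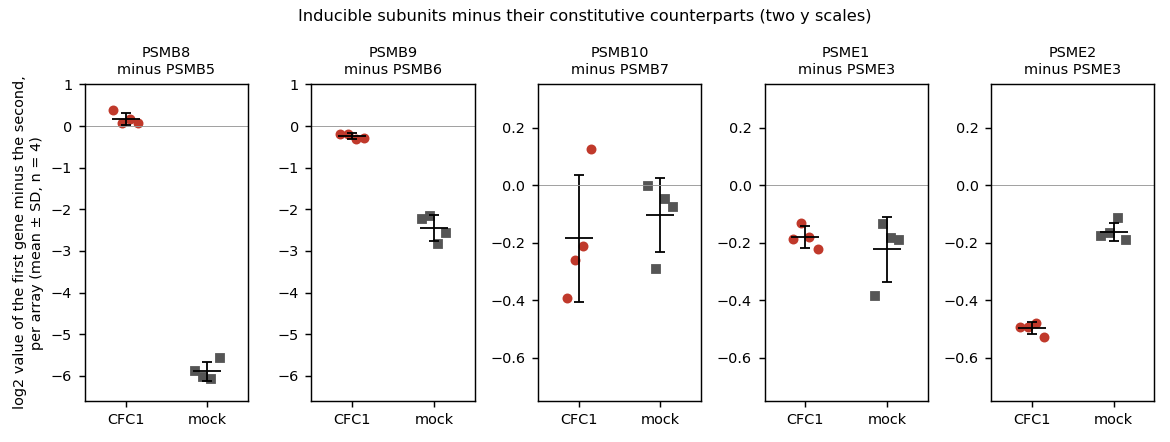
Log2 value of each inducible subunit minus its constitutive counterpart (y axis, per array), with points for the 4 arrays labelled CFC1 on the left and the 4 mock arrays on the right of each panel and black bars for mean ± SD. The y scale differs between the left 2 panels and the right 3: the groups are apart by 6.07 for PSMB8 minus PSMB5 and by 2.21 for PSMB9 minus PSMB6, overlap for PSMB10 and PSME1, and are apart by -0.33 for PSME2.

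Promoter sequence is shown for the immunoproteasome genes because PSMB8 and PSMB10, which rose, PSME2, which fell, and PSME1, which did not pass, all hold the same short motif. A script searched windows from 250 bases before to 50 bases after each gene's start (RefSeq, GRCh38.p14) for GAAANNGAAA, the core of the element bound by interferon regulatory factors, on both strands. Of all 35116 windows, 3.57% hold it, and 4.38% of all 27305 genes with a window hold it in at least 1 window. Of the 5 immunoproteasome genes 4 hold it, as do 2 (PSMA4 and PSMB4) of the 31 constitutive members in the table. PSMB9 has no match in its own window. It shares the stretch between 2 divergent genes with TAP1, the transporter that carries peptides to MHC class I, and the TAP1 window holds 2 overlapping matches that end 354 bases before the start of PSMB9. The stretches are given 5′ to 3′ on the strand of the gene, with the match in capitals. They lie at chr6:32844030-32844091 (minus strand) for PSMB8, at the second of its start sites in the table, chr6:32853811-32853878 (minus strand) for TAP1, chr16:67936850-67936911 (minus strand) for PSMB10, chr14:24136159-24136220 (plus strand) for PSME1 and chr14:24146617-24146678 (minus strand) for PSME2.
PSMB8: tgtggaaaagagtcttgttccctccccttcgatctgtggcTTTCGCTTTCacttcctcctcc
TAP1: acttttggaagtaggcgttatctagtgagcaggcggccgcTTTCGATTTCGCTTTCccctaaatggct
PSMB10: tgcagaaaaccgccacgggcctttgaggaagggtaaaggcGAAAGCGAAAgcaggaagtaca
PSME1: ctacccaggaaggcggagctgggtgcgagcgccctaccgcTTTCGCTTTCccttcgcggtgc
PSME2: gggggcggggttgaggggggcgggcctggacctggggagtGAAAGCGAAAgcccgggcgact
In all 5 stretches the capitals include GAAAGCGAAA or its reverse complement TTTCGCTTTC, beside differences of 5.70 for PSMB8, 7.83 for TAP1, 0.46 for PSMB10, -0.06 for PSME1 and -0.44 for PSME2. A match is a description of the letters and says nothing about binding.

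The constitutive core rose in most of its subunits. Of the 7 constitutive alpha subunits, which form the outer rings and the gate of the barrel, 5 rose (PSMA5 by 1.16, PSMA7 by 0.81, PSMA4 by 0.53, PSMA3 by 0.34 and PSMA6 by 0.12) and PSMA1 fell, while PSMA2 did not pass (0.06, adjusted p = 0.366 in limma). The call of PSMA6 was lost after quantile normalization (0.107, adjusted p = 0.0802) and median centring (0.161, adjusted p = 0.122), and E1A scaling moved it to 0.221. PSMA5 read -0.064, -0.079, -0.088 and 0 in the arrays labelled CFC1 and -1.271, -1.269, -1.169 and -1.177 in the mock arrays. It was the alpha subunit with the largest rise (1.16, SE 0.041, adjusted p = 1.7e-07 in limma), and its groups lay far apart. PSMA1 read -0.036, -0.115, -0.012 and 0.065 in the arrays labelled CFC1 and 0.189, 0.121, 0.211 and 0.236 in the mock arrays. Its groups were close but did not overlap (difference -0.21, adjusted p = 0.00581 in limma), but quantile normalization (-0.105, adjusted p = 0.181), median centring (-0.171) and E1A scaling (-0.112) each ended the call.

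PSMA8, which replaces PSMA7 in the testis, read -0.179, -0.422, -0.276 and -0.05 in the arrays labelled CFC1 and -0.082, -0.214, -0.248 and 0.213 in the mock arrays. PSMB11, the thymus-specific catalytic subunit, read 0.212, -0.413, 0.127 and -0.124 in the arrays labelled CFC1 and 1.062, -0.318, -0.312 and 0.136 in the mock arrays. Both overlapped between the groups and did not pass (adjusted p = 0.34 and 0.636 in limma).

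Of the 7 constitutive beta subunits, 5 rose, 1 fell and PSMB3 did not pass (0.07, adjusted p = 0.222 in limma). The catalytic subunits split. PSMB5, the target of bortezomib, read -0.383, -0.316, -0.213 and -0.231 in the arrays labelled CFC1 and -0.022, 0.035, 0.215 and 0.107 in the mock arrays. It fell without overlap (-0.37, SE 0.064, adjusted p = 0.00143 in limma). PSMB6 read 0.072, 0.092, 0.226 and 0.281 in the arrays labelled CFC1 and -0.29, -0.355, -0.166 and -0.219 in the mock arrays, a rise of 0.42 (adjusted p = 0.000714 in limma). PSMB7 read 0.209, 0.099, 0.152 and -0.125 in the arrays labelled CFC1 and -0.575, -0.332, -0.514 and -0.402 in the mock arrays, a rise of 0.54 (adjusted p = 0.000953 in limma). For both rises the groups did not overlap. The place of PSMB5 and PSMB8 is thus the one where the constitutive subunit fell while the inducible one rose.

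Among the non-catalytic beta subunits PSMB1 rose by 0.57 and PSMB4 by 0.54. PSMB2 had the largest rise of this ring, with 0.502, 0.525, 0.618 and 0.588 in the arrays labelled CFC1 and -0.504, -0.495, -0.406 and -0.445 in the mock arrays (1.02, SE 0.041, adjusted p = 3.67e-07 in limma). Its 3 probes rose by 0.64, 0.70 and 1.72. The probe with the largest rise read 1.649 to 1.863 in the arrays labelled CFC1 and -0.015 to 0.159 in the mock arrays, relative to its own baseline. With the median of the probes in place of their mean the rise of PSMB2 was 0.66.

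**Figure D3:**
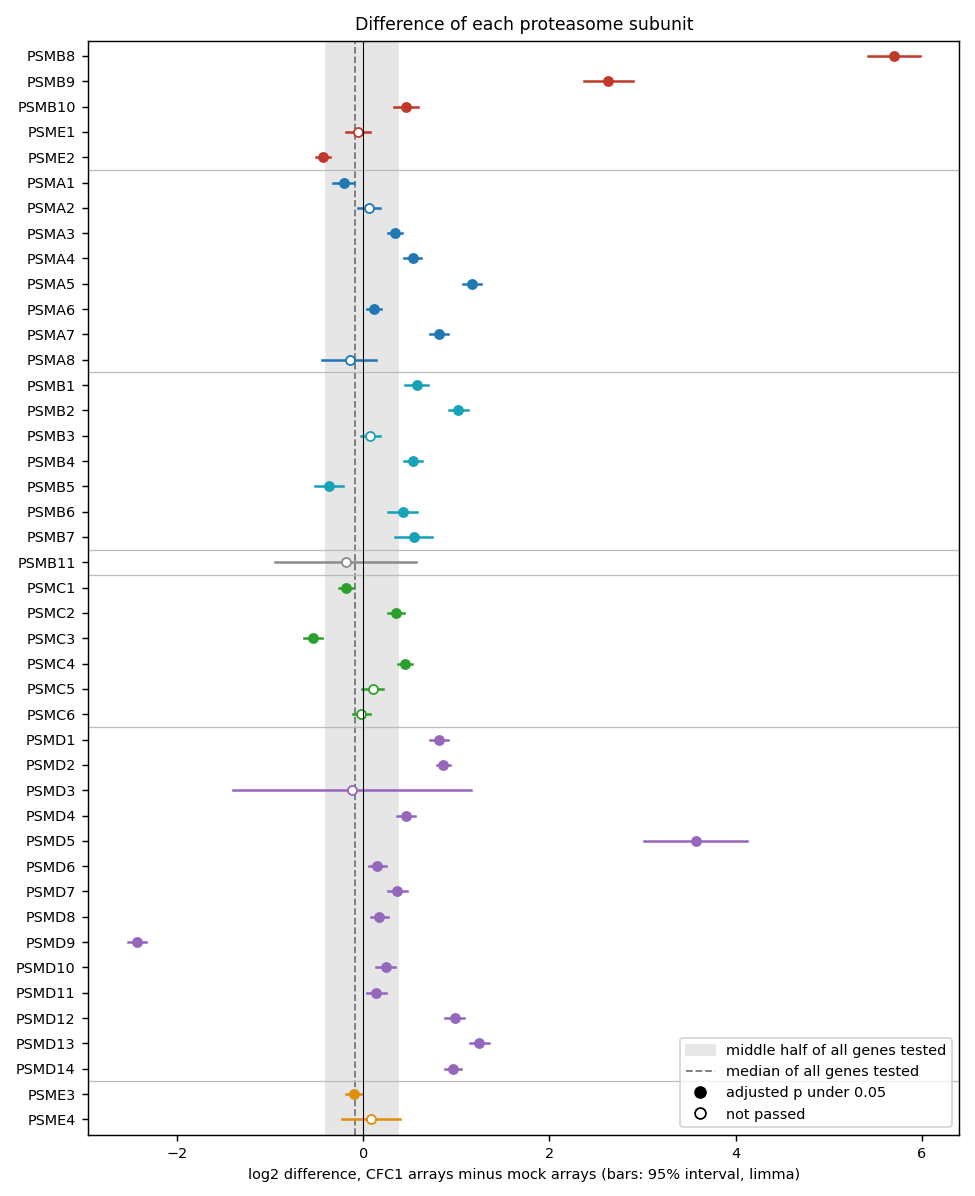
Log2 difference of each subunit, arrays labelled CFC1 minus mock arrays (x axis, points with 95% limma intervals, filled where the adjusted p was under 0.05), with the quartiles of all genes tested (-0.40 to 0.37) as a grey band. PSMB8 (5.70), PSMD5 (3.57) and PSMB9 (2.63) stand far above the other members and PSMD9 (-2.44) far below them.

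The 6 ATPases of the regulatory particle, which form the ring that unfolds substrates, moved little and in both directions: 2 rose, 2 fell and 2 did not pass. PSMC4 had the largest rise, with 0.045, 0.052, 0.113 and 0.077 in the arrays labelled CFC1 and -0.351, -0.395, -0.342 and -0.402 in the mock arrays (0.44, SE 0.033, adjusted p = 9.9e-06 in limma). PSMC3 had the largest fall, with 0.038, 0, 0.131 and 0.092 in the arrays labelled CFC1 and 0.588, 0.554, 0.646 and 0.638 in the mock arrays (-0.54, SE 0.042, adjusted p = 1.34e-05 in limma), and after quantile normalization the difference was -0.272. Both had groups well apart, although these ATPases sit in the same ring. PSMC2 rose by 0.35, with 1 probe that rose (0.58) and 1 that did not pass (0.13), and PSMC1 changed by -0.19. The call of PSMC1 was lost under median centring (-0.145) and E1A scaling (-0.085, adjusted p = 0.194). PSMC5 (0.10) and PSMC6 (-0.02) did not pass (adjusted p = 0.11 and 0.658 in limma). PSMC5 passed after quantile normalization (0.306), under E1A scaling (0.203) and without mock replicate 3 (0.135, adjusted p = 0.0328).

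The 14 genes named as non-ATPase subunits gave 12 that rose, 1 that fell and 1 that did not pass. Among structural subunits, PSMD13 rose by 1.25, PSMD12 by 0.98, PSMD2 by 0.86 and PSMD1 by 0.81; PSMD1 and PSMD2 are the large scaffolds that hold ubiquitin receptors. PSMD14, the deubiquitinase that removes ubiquitin chains as a substrate enters, rose by 0.96, and PSMD4, a ubiquitin receptor, by 0.46. PSMD7, the partner of PSMD14, rose by 0.36. PSMD8, PSMD6 and PSMD11 rose by 0.17, 0.15 and 0.14. The call of PSMD8 was lost after quantile normalization (0.14, adjusted p = 0.0664 in limma) and median centring (adjusted p = 0.0558), and E1A scaling moved it to 0.273. That of PSMD6 was lost under median centring (0.191, adjusted p = 0.0949), and its rise was 0.336 after quantile normalization and 0.251 under E1A scaling. PSMD11 read 0.309 after quantile normalization and 0.24 under E1A scaling, had overlapping groups and lost its call in 8 of 19 alternatives, among them each omission of 1 array except those of CFC1 replicate 2 and mock replicate 1.

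The 2 extreme values of the regulatory particle belonged to chaperones. PSMD5, PSMD9 and PSMD10 are not parts of the finished particle but help to assemble its base. PSMD5 read -0.331, -0.315, -0.133 and -0.525 in the arrays labelled CFC1 and -4.16, -3.925, -4.295 and -3.205 in the mock arrays. The mock arrays lay below by more than 2 log2 units in every case, and the rise was 3.57 (SE 0.234, adjusted p = 5.2e-06 in limma), or 11.9-fold, and 2.145 after quantile normalization. All 3 probes rose, by 2.67, 3.73 and 4.31. CUTALP, the neighbouring gene that the array lists as the antisense transcript of PSMD5, rose too, by 2.48 (adjusted p = 1.12e-05 in limma). Whether each probe reads 1 strand only was not tested.

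PSMD9 moved the other way. It read 0.075, 0.014, 0.114 and 0.112 in the arrays labelled CFC1 and 2.485, 2.492, 2.59 and 2.491 in the mock arrays, a fall of 5.41-fold (difference -2.44, SE 0.041, adjusted p = 4.79e-09 in limma). Its 2 probes changed by -2.18 and -2.69, and no array of one group came near the other group. PSMD10, also known as gankyrin, rose by 0.24 (adjusted p = 0.00165 in limma), but its 3 probes were called in opposite directions (0.54, 0.63 and -0.46).

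PSMD3, a structural subunit, had 1 array of each group far from the rest. It read 1.423, -0.168, -0.108 and 0.052 in the arrays labelled CFC1 and 1.795, -0.168, -0.065 and 0.12 in the mock arrays, so that replicate 1 was high in both groups. The pattern came from 1 of its 2 probes, which read 2.868 in CFC1 replicate 1 and 3.731 in mock replicate 1, against -0.426 to 0.223 in the other 6 arrays. The other probe, on the main transcript, differed by 0.12 and did not pass (95% interval -0.03 to 0.28, adjusted p = 0.193 in limma).

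The other activators changed little. PSME3 read 0.023, 0, 0.018 and 0.054 in the arrays labelled CFC1 and 0.13, 0.077, 0.103 and 0.191 in the mock arrays. The groups did not overlap, but the fall was small (-0.10, adjusted p = 0.0412 in limma) and its call held in only 7 of 19 alternatives, with a difference of 0.018 after quantile normalization and of 0.0 under E1A scaling. It was lost without replicates 1, 2, 3 or 4 of CFC1 and without replicates 1, 3 or 4 of mock (-0.112 to -0.08). PSME4, a large single-chain activator linked to histone degradation, read 0.166, 0.279, 0.011 and 0.345 in the arrays labelled CFC1 and 0.435, 0.157, -0.157 and 0.055 in the mock arrays. Its groups overlapped and the mean of its probes did not pass (0.08, adjusted p = 0.641 in limma), although 2 of its 3 probes rose (0.18 and 0.36).

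Of the 43 members, 28 had 1 probe and 15 had several. In 9 of the 15 all probes were called one way, in 3 some were called and others not, in 2 none was called, and PSMD10 alone had probes called in opposite directions. PSMB2, PSMD5 and PSMD10 had probes more than 1 log2 unit apart. For PSMA1 the fall came from 1 probe (-0.50), while the other did not pass (0.08). Over all probes tested one by one, 42.1% were called.

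**Figure D4:**
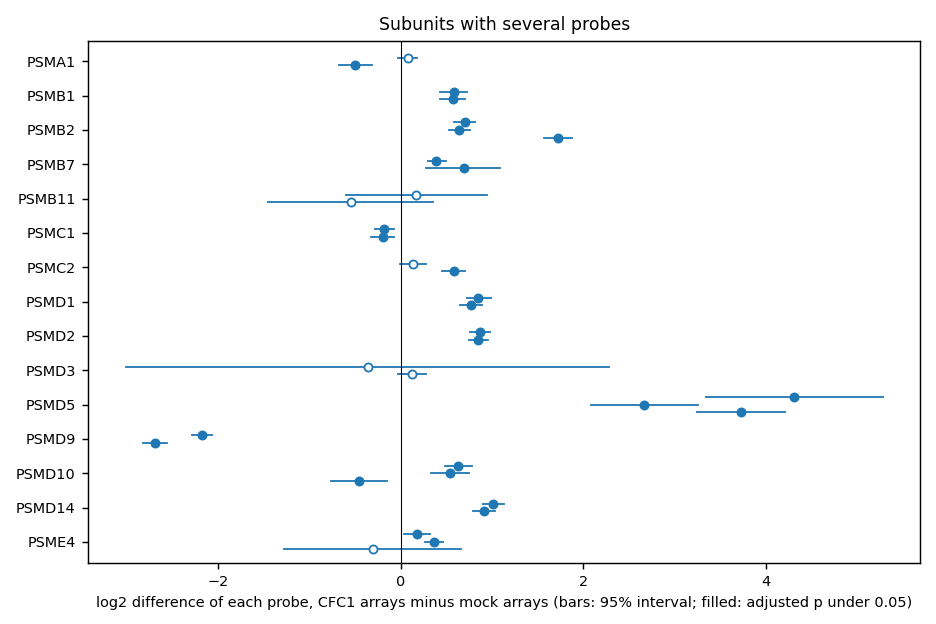
Log2 difference of each probe, arrays labelled CFC1 minus mock arrays (x axis, with 95% intervals, filled where the adjusted p over all probes was under 0.05), for the 15 subunits with several probes. The probes of PSMD5 all lie above 2 and those of PSMD9 below -2, and the 3 probes of PSMD10 lie on both sides of 0.

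Where the genes lie was described by up to 5 measured genes on each side, in the gene order of RefSeq. PSMB8 and PSMB9 are neighbours in the MHC region of chromosome 6, in the order TAP2, PSMB8, TAP1, PSMB9. TAP2 rose by 2.87 and TAP1 by 7.83, and of the 10 neighbours of PSMB8 5 rose and 0 fell. PSMB9 is itself among those 5. Of all genes 29.7% rose and 28.2% fell. PSME1 and PSME2 are neighbours on chromosome 14, among genes of which 0 rose and 9 fell for each (neighbour medians -0.89 and -0.90). PSME2 is itself among the 9 counted for PSME1, and most of the other genes are in both lists. Both lists include IRF9, a transcription factor of type I interferon signalling, at -1.03. PSMD9, on chromosome 12, lay among 10 genes that ranged from -3.88 to -0.33, of which 8 fell. PSMD5, on chromosome 9, had neighbours in both directions (-2.83 to 2.48, median -0.12). All 7 members that fell had a neighbour median below 0, as did 16 of the 27 that rose, where 72.8% of all genes that fell and 44.7% of those that rose had one. Over the 43 members the difference and the neighbour median gave r = 0.71 (Spearman rho 0.72), beside r = 0.29 over all 21509 genes placed. Without PSMB8, PSMB9 and PSMD9, a choice made after the values were seen, r was 0.42 and rho 0.65 over the other 40. Members share arrays and in part neighbours, some members are neighbours of each other, and genes are not independent replicates.

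**Figure D5:**
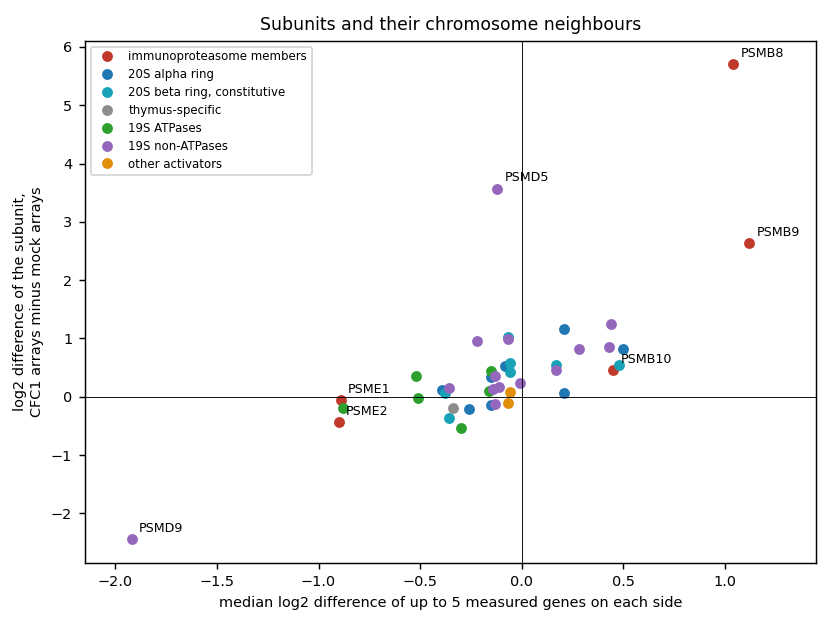
Log2 difference of each subunit (y axis) against the median log2 difference of up to 5 measured genes on each side of it (x axis), each the mean over arrays labelled CFC1 minus that over mock arrays, with 1 point per subunit coloured by class. PSMB8 and PSMB9 lie at the upper right, PSMD9 at the lower left, and PSMD5 stands high above neighbours with a median of -0.12.

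Genes that build, control and use the proteasome were read from lists, beside the 29.7% of all genes that rose and the 28.2% that fell. Of 15 assembly factors and partners, 9 rose, 1 fell and 5 did not pass (66.7% called, where 57.9% of all genes were; median 0.37). POMP, the chaperone that matures the core, rose by 1.24 and ADRM1, a ubiquitin receptor, by 1.02. UCHL5, the deubiquitinase docked on ADRM1, rose by 0.83, and PSMG2, a chaperone of the alpha ring, by 0.71. Of 12 genes of the pathway in which the transcription factor NRF1 (NFE2L1) induces proteasome genes, 7 rose, 1 fell and 4 did not pass (also 66.7% called; median 0.29). The largest differences of the list were rises, of its small MAF partners MAFK, MAFF and MAFG by 2.54, 1.52 and 0.71, and of NGLY1, an enzyme in NRF1 activation, by 0.56. The core of the element that NRF1 and MAF proteins bind, searched as TGACNNNGC on both strands, is in 13.3% of all promoter windows. It is in at least 1 window of 16.1% of all genes, of 10 of the 31 constitutive members in the table and of 3 of the 5 immunoproteasome genes. It shares no fixed stretch with GAAANNGAAA. Among the constitutive genes that hold it, PSMA4, PSMC4, PSMD1, PSMD5 and PSMD12 rose, PSMD9 fell, and PSMB3, PSMC5, PSMD3 and PSME4 did not pass. Among the immunoproteasome genes that hold it, PSMB9 rose, PSME2 fell and PSME1 did not pass. Whether the motif has any part in these differences was not tested.

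The interferon list moved in both directions, with 6 that rose, 5 that fell and 6 that did not pass of 17 (64.7% called; median 0.03). NLRC5, the transactivator of MHC class I genes, rose by 1.33. STAT2 and IRF9, which act together downstream of type I interferon, changed by -1.23 and -1.03, and SOCS1, a feedback inhibitor, by -1.16. Of 14 genes that supply peptides to MHC class I, 11 rose, 2 fell and 1 did not pass (92.9% called; median 2.07), with HLA-C at 9.32, TAP1 at 7.83, HLA-B at 7.23 and ERAP2, a peptidase that trims peptides in the endoplasmic reticulum, at 5.43. HLA-B and HLA-C are similar in sequence, so their separate values are uncertain. Of 3 ubiquitin and E1 genes 2 rose and 1 did not pass: UBB, a polyubiquitin gene, by 7.97-fold, UBA1, the main activating enzyme, by 0.50 on the log2 scale, and UBA6 read 0.35 higher without passing (adjusted p = 0.0637 in limma).

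Markers of cell types were called in 80.0% of the adrenergic, 87.5% of the fibroblast, 40% of the endothelial and 28.6% of the immune list, where 57.9% of all genes were called. Of 10 adrenergic neuroblastoma markers 0 rose and 8 fell, with DDC, CHGB, ISL1 and GATA2 at -2.51, -2.48, -2.18 and -1.66. Of 8 fibroblast markers 1 rose and 6 fell (PDGFRA -2.78, COL3A1 -1.88, COL1A1 -1.44 and DCN -1.13), of 5 endothelial markers 0 rose and 2 fell (KDR -3.08 and TEK -2.89, with VWF at -0.14 and PECAM1 at -0.11 not passing), and of 7 immune cell markers 1 rose and 1 fell (CD14 1.16 and CD68 -0.42, with CD3E at -0.50 and NKG7 at 0.42 not passing). Immune cells express the immunoproteasome constitutively. Of their markers PTPRC, the antigen common to leukocytes, differed by -0.07 and did not pass (adjusted p = 0.488 in limma; named after its value was seen). Because the values give no level, the PTPRC difference does not show whether leukocytes were present, and CD14 of the same list rose. The part of other cells in the results was not tested.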

How the data were processed

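Per the labels' protocols, total RNA of mock-transduced and CFC1-transduced NGP cells was labelled with Cyanine3 for one-colour Agilent arrays. The deposited values lie on a logarithmic scale, read here as log2, from -13.0 to 9.81, with array medians from -0.145 to 0.139. The sources used here do not give the logarithm's base, the feature extraction or any scaling. Every probe has arrays on both sides of 0 or at it, so each is set against an unstated baseline. Precision is limited by the number of arrays.

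Without 140 control spots, 50599 probes remained, of which 31993 had 1 gene symbol, 18606 had no name in the annotation given and 0 had more than 1. Symbols were updated through accession (28423), symbol (3069) or synonym (479) with the RefSeq table of GRCh38.p14, and 22 were kept. Probes of a gene were averaged. Groups were compared in R 4.3.3 with limma 3.58.1 (functions lmFit, eBayes; no trend, no block), two-sided, with Benjamini-Hochberg adjustment over all 21524 genes and a threshold of 0.05. The model was tried on simulated data in which 200 of 21524 independent genes were changed. It called 75% of the differences of 1 log2 unit and 46% of those of 0.5. Of its 131 calls, 10 were of unchanged genes. Far fewer genes were changed there than were called in the real data, so the rates need not hold here. Exact permutation tests used scipy 1.17.1. Promoter windows are from RefSeq, where 38 of the 43 members matched; PSMA7, PSMB1, PSMB6, PSMB7 and PSMD4 did not.

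The members and lists were chosen with earlier results of these data known. Values per array are given for the immunoproteasome members, their counterparts, PSMA8, PSMB11 and the largest rise and fall of each class, and from each other list up to 4 genes with the largest difference are named. PSMD3, CUTALP, TAP2 and PTPRC fall outside that rule and were named after their values were seen. The alternatives were quantile normalization, centring on array medians, scaling to the 10 E1A spike-in spots, a block for replicate number, array weights, unmoderated variances, a prior variance with a trend, the median of a gene's probes, a fit over all probes, natural logarithms and leaving out each array. Leaving out replicate 1 of both groups was added after the data were seen.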

Additional observations from a re-analysis of the deposited data

Results flagged for a closer look

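In 5 of 86 groups of 4 arrays of the members, 1 array lay far from the other 3 by Dixon's criterion, where chance gives about 1 in 20 groups. PSMD3 had this in both groups, and in both it was replicate 1: 1.423 in the arrays labelled CFC1, where the others ran from -0.168 to 0.052, and 1.795 in the mock arrays, where the others ran from -0.168 to 0.12. Both came from the same probe. The remaining cases were small. PSMA4 read -0.61 in mock replicate 2 (others -0.526 to -0.514), PSMB3 read -0.237 in mock replicate 2 (others -0.132 to -0.112), and PSMD9 read 2.59 in mock replicate 3 (others 2.485 to 2.492).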

How the results depend on the processing

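Of the 34 called members, 27 kept call and direction in all 19 alternatives. The exceptions were PSMA1, PSMA6, PSMC1, PSMD6, PSMD8, PSMD11 and PSME3, and for each the cause was not tested. Reading the values as natural logarithms rescales all of them alike, so that alternative could not change a call. In the fit over all probes a gene took the smallest adjusted p of its probes, so 1 passing probe kept its call. PSME3 turned to 0.018 after quantile normalization and to 0.0 under scaling to the E1A spots, a setting that moved the median of all genes by 0.102. Quantile normalization moved the median difference of immunoproteasome members to 0.34 and of constitutive members to 0.323, centring moved that of constitutive members to 0.391, E1A scaling gave 0.561 for immunoproteasome and 0.45 for constitutive members, and natural logarithms 0.663 and 0.503. The fit over all probes called 21289 of 50599 probes (10123 higher, 11166 lower), against 12456 genes. With replicate numbers as a block the members' calls all held, and that of CFC1 (-0.796) was lost (adjusted p = 0.0761). It was also lost with unmoderated variances and over all probes (-0.796), under median centring (-0.754) and E1A scaling (-0.694), and held in 8 of 19 alternatives. With arrays left out the CFC1 difference ran from -0.944 to -0.568.

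Same-numbered arrays deviated together with r = 0.138, 0.199, 0.074 and 0.19, each higher than with any other number, a hint from the data that the labels do not state. As a block, the pair differences of PSMB8 (6.068), PSMB9 (2.209) and PSME2 (-0.334) had exact p = 0.125 by sign flips over 4 pairs, the smallest possible, and with 1 array left out 0.0571 is the smallest, so neither can pass. Their values then ran from 6.0 to 6.173, from 2.08 to 2.309 and from -0.344 to -0.319. The missing levels and background flags limit all folds, and whether any mock signal lay near background is unknown.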
